A study of Mus musculus with 13 samples.

Results

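The MHC class I presentation genes examined here were 10 rows, chosen by name, of a count table of 55416 mouse genes. They were the heavy chains H2-D1, H2-K1 and H2-Q4, the light chain B2m, the peptide transporter subunits Tap1 and Tap2, the loading chaperone Tapbp, the trimming enzyme Erap1, and the proteasome subunits Psmb8 and Psmb9. All 10 were found by Ensembl identifier in the GENCODE M21 annotation (GRCm38), which held 52135 of the genes. The low-count filter kept 7722 genes for testing, 7 of these 10 among them. Tap1, Tap2 and Psmb8 had too few reads and are described by their reads.

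The data were read counts per gene from polyadenylated RNA of 13 pieces of mouse tissue. The PDGFB tumors (n = 5, genotype PDGFB-shP53) arose after a lentivirus carrying PDGFB, a platelet-derived growth factor, and a short hairpin RNA against p53 was put into the motor cortex of CNP-Cre mice. The RAS tumors (n = 5, genotype HrasV12-shp53) arose in the same mice from a virus with the oncogenic HRasV12 and the same kind of hairpin. Cre was expressed in these mice from the oligodendrocyte gene Cnp (allele Cnptm1(cre)Kan), so the model concerns cells of that lineage, and both tumor groups share Cre and the hairpin. GFP-marked tumor tissue was collected at the clinical endpoint from 5 mice per tumor group, and such tissue can also hold cells of the host. The normal brain samples (n = 3) are labelled WT in genotype, yet the protocol speaks of normal tissue cut away from the marked tumor. Neither the animals, the brain region nor the number of mice behind them is given, and their titles mark both sexes. P-values therefore measure the spread between these samples, and ages are not given.

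MHC class I molecules show short peptides from inside the cell to CD8 T cells and are also read by natural killer cells. Proteins are cut by the proteasome, whose interferon-induced form carries Psmb8 and Psmb9. Peptides pass into the endoplasmic reticulum through the Tap1 and Tap2 transporter, are trimmed by Erap1, and are fitted by Tapbp (tapasin) into a heavy chain held by B2m. In healthy brain most cells carry little class I, and interferons raise most genes of the pathway.

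Libraries held 529162 to 643055 reads counted for a gene, and 95.2% to 95.7% of the uniquely mapped reads fell in no gene. Of the reads counted for annotated genes, 84.8% stood under the 17.1% of genes that share exon bases with a gene transcribed the other way. Such genes had 186.6 reads per kb of exon over the 13 libraries, and genes with no gene opposite had 12.8. The kit named in the labels does not settle whether strand was marked, and the strand setting of the count is not given in the sources used here. A gene name below therefore means the reads deposited under it, and reads of a gene and of its opposite partner cannot be told apart. H2-D1 and H2-K1 have no gene opposite, and B2m lies opposite an intron of Patl2, which had 0 to 2 reads per library. Whether the reads counted came from a gene's own strand was not settled for any row, H2-D1, H2-K1 and B2m included. RAS tumor 2 stood at −11.2 on the first principal component of all tested genes and the other RAS tumors at −53.3 to −71.4. In each group the samples were separate libraries, since the closest pair of replicates differed by more than sampling noise (chi-square per degree of freedom 1.90).

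Reads deposited under the classical heavy chains, their light chain and Erap1 were highest in RAS tumors. In PDGFB tumors, 4 of the 7 tested genes were higher than in normal brain (H2-D1, H2-Q4, B2m and Psmb9) and none was lower. In RAS tumors, 6 of 7 were higher than in normal brain, all except Tapbp, and none was lower. Between the tumor types 4 of 7 were lower in PDGFB than in RAS tumors (H2-D1, H2-K1, B2m and Erap1) and none was higher. DESeq2 and limma-voom also called none in the opposite direction in any of the 3 comparisons, and 0 genes had an unadjusted p under 0.05 there. Calls were made at a Benjamini-Hochberg adjusted p under 0.05 in edgeR's quasi-likelihood test over all 7722 genes.

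Set beside these counts, 20.2% of all tested genes were higher and 25.1% were lower in PDGFB tumors when set against normal brain. In RAS tumors 26.9% were higher and 29.3% lower than in normal brain, and in PDGFB tumors 14.6% were higher and 17.4% lower than in RAS tumors. The median log2 fold change of the 7 tested genes was 2.24 in PDGFB tumors against normal brain, 4.37 in RAS tumors against normal brain and −2.01 in PDGFB against RAS tumors. The medians over all tested genes were −0.002, 0.016 and 0.026 in the same order of comparisons. With no low-count filter, the medians over all 10 class I genes were 2.33, 3.86 and −1.10 (3.09 for RAS tumors against normal brain with Tap1 at its lower bound), so the difference between the tumor types was smaller when Tap1, Tap2 and Psmb8 were counted. H2-D1, H2-K1, H2-Q4, B2m and Psmb9 had under 10 reads in every normal brain, so they passed the filter through tumor libraries, and the counts over tested genes carry that choice. H2-K1 and H2-Q4 had medians of 8 and 6 reads in PDGFB tumors and passed through RAS tumors, so the count between the tumor types carries it too. Scaling by library totals moved the all-gene medians to 0.229, 0.109 and 0.165. It also moved the split of all calls to 2045 higher and 1556 lower in PDGFB tumors against normal brain, in place of 1558 and 1940. Between PDGFB and RAS tumors the split became 1445 higher and 1075 lower, in place of 1130 and 1346, and the count of called class I genes there stayed at 4.

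**Figure D1:**
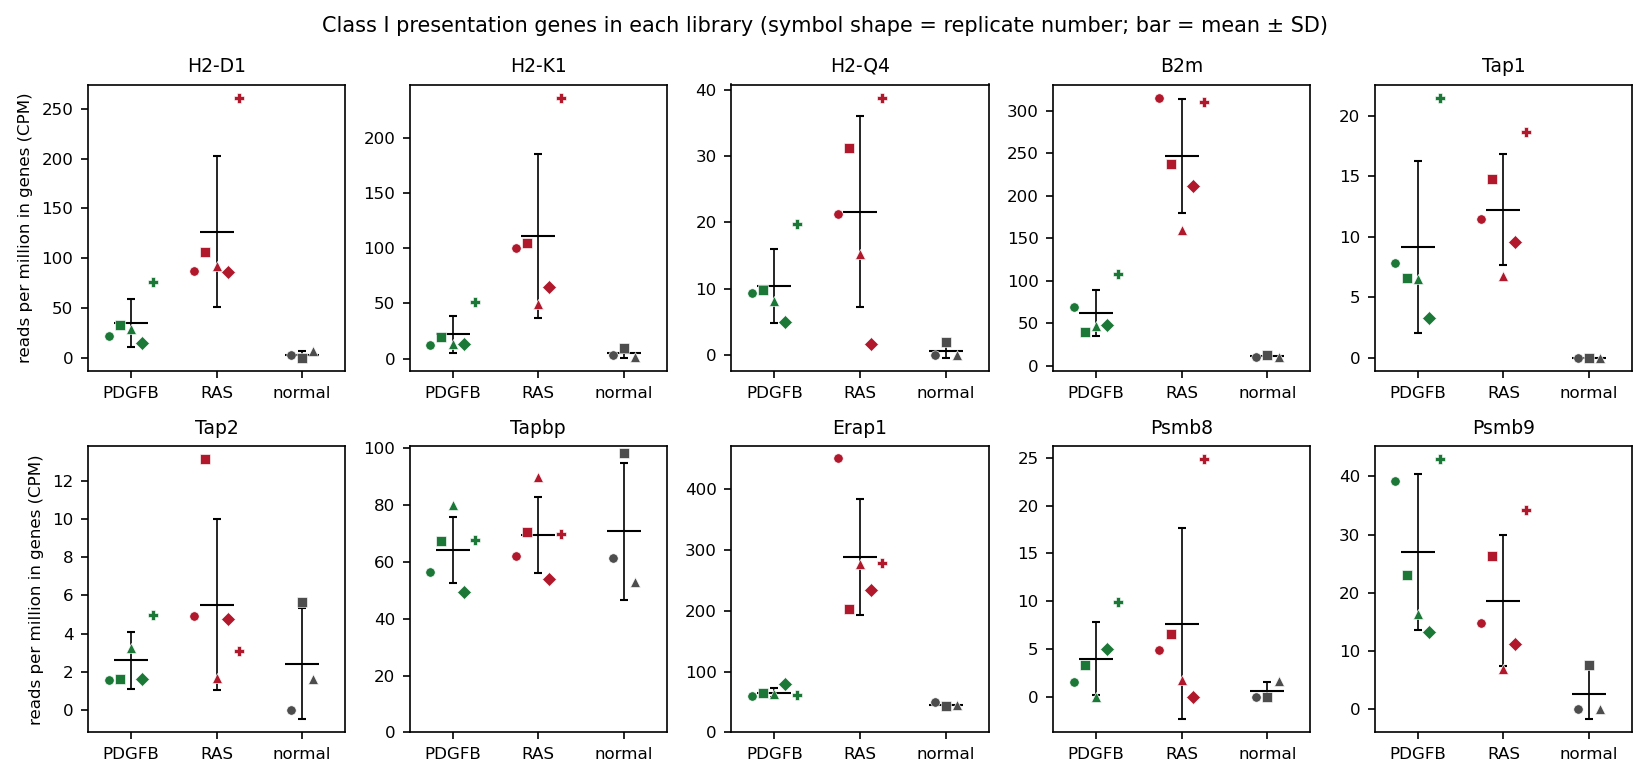
Reads scaled to a common total of reads counted in genes (CPM, linear axes) for each of the 10 class I genes. Each point is a library, its shape the replicate number, and the bar gives the mean ± SD of the 5 PDGFB tumors, 5 RAS tumors and 3 normal brains. Normal brains lie lowest for H2-D1, H2-K1 and B2m, the groups overlap throughout for Tapbp, and the 5 RAS tumors stand alone at the top for Erap1 (203.5 to 450.2 CPM).

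H2-D1 encodes one of the classical class I heavy chains (chromosome 17, 35262730 to 35267499, plus strand, GRCm38). It had 14, 20, 18, 9 and 46 reads in PDGFB tumors 1 to 5, 53, 65, 54, 54 and 168 in RAS tumors 1 to 5, and 2, 0 and 4 in normal brains 1 to 3. No library of one group overlapped another group, with RAS tumors highest, PDGFB tumors between and normal brains lowest. Scaled to the reads counted in genes, it averaged 35.02 ± 23.97 CPM in PDGFB tumors and 126.5 ± 75.8 in RAS tumors, against 3.34 ± 3.31 in normal brain (SD, n = 5, 5 and 3). PDGFB tumors exceeded normal brain by a log2 fold change of 3.04 ± 0.79 (SE; adjusted p = 0.00472) and so did RAS tumors (5.04 ± 0.74, adjusted p = 2.66e-05). It was lower in PDGFB than in RAS tumors (−2.01 ± 0.44, adjusted p = 0.00216), 0.248 times the RAS level. Leaving out normal brain 3 moved the first 2 of these values to 4.0 and 5.99, with both calls kept.

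H2-K1, the other classical heavy chain (chromosome 17, 33996017 to 34000347, minus strand), had 8, 12, 8, 8 and 31 reads in PDGFB tumors, 61, 64, 29, 41 and 152 in RAS tumors, and 2, 5 and 1 in normal brain. All 10 tumors stood above the normal brains, and PDGFB tumor 5 reached into the range of the RAS tumors. The means were 21.96 ± 16.65 CPM in PDGFB tumors and 111.1 ± 73.8 in RAS tumors, against 4.84 ± 4.09 in normal brain. RAS tumors exceeded normal brain (log2 fold change 4.44 ± 0.73, adjusted p = 7e-05) and PDGFB tumors stood below RAS tumors (−2.49 ± 0.47, adjusted p = 6.83e-04). In PDGFB tumors against normal brain it missed the threshold (1.95 ± 0.80, adjusted p = 0.0551). The last call depended on settings: it passed under 13 alternatives, and its adjusted p ran between 0.00122 and 0.168 over all of them. Without normal brain 2 the RAS value was 5.34 and the PDGFB value 2.89 (adjusted p = 0.0371).

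H2-Q4, a non-classical heavy chain (chromosome 17, 35379617 to 35385290, plus strand), was sparser, with 6, 6, 5, 3 and 12 reads in PDGFB tumors, 13, 19, 9, 1 and 25 in RAS tumors, and 0, 1 and 0 in normal brain. PDGFB tumors lay above the normal brains in every library, while RAS tumor 4 fell into the range of the normal brains. With a single read over the 3 normal brains, the ratio of reads was 17.9 for PDGFB tumors (95% counting interval 3.0 to 731) and 37.4 for RAS tumors (6.49 to 1500). Both were called (adjusted p = 0.0229 and 0.0013). The PDGFB call ended with limma-voom (adjusted p = 0.0915) and without normal brain 1 (0.0760) or 3 (0.0771). Between PDGFB and RAS tumors the log2 difference of −1.18 ± 0.54 missed the threshold (adjusted p = 0.106), and passed without RAS tumor 4 (adjusted p = 0.0189). Of the 50-base stretches in the annotated H2-Q4 transcripts, 21.8% also occur in transcripts of other genes, mainly H2-Q6, against 12.8% for H2-D1 and 9.63% for H2-K1. How the count treated reads shared by heavy chains is not given in the sources used here, so the split between them is uncertain.

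B2m, the light chain shared by all of these heavy chains (chromosome 2, 122147686 to 122153083, plus strand), had the most reads per length of the 10 genes in both tumor types. Its row held 44, 24, 29, 29 and 65 reads in PDGFB tumors, 193, 145, 94, 133 and 200 in RAS tumors, and 6, 7 and 6 in normal brain. The 3 groups did not overlap. The means were 62.2 ± 27.6 CPM in PDGFB tumors and 247.2 ± 66.7 in RAS tumors, against 11.1 ± 1.83 in normal brain. B2m in PDGFB tumors was 4.72-fold above normal brain (log2 2.24 ± 0.42, adjusted p = 3.47e-04) and in RAS tumors 20.6-fold above it (4.37 ± 0.42, adjusted p = 3.93e-07). In PDGFB tumors it stood at 0.229 times the RAS level (−2.13 ± 0.28, adjusted p = 2.53e-05). None of its 50-base stretches occurs in another annotated gene, and it kept these 3 calls under every alternative run.

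Per kb of exon, the order in RAS tumors was B2m (287.5 CPM per kb), H2-D1 (49.0), Erap1 (39.6), H2-K1 (37.8), Tapbp (19.1), H2-Q4 (8.34), Psmb9 (5.09), Psmb8 (2.25), Tap1 (2.24) and Tap2 (1.46). Of the steps between neighbours in this order, 2 were wider than the SDs of both genes, that from B2m to H2-D1 and that from Tapbp to H2-Q4, so the order within the other stretches is not resolved. In PDGFB tumors B2m again led at 72.4 CPM per kb, followed by Tapbp at 17.7 and H2-D1 at 13.6. In normal brain Tapbp led at 19.5, B2m had 12.9 and the heavy chains had 0.243 to 1.65. H2-Q4, Tap1, Tap2, Tapbp, Erap1, Psmb8 and Psmb9 share exon bases with a gene on the other strand. H2-D1, H2-K1 and B2m do not, so these orders are of rows and not of RNA levels.

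Promoter stretches of the heavy chains, B2m and Erap1, which were higher in RAS tumors than in normal brain, are shown because they hold letters of known class I control elements. RefSeq promoters (GRCm38.p6, 250 bases before to 50 after the start) matched 9 of the 10 genes; Tap2 was not matched. Capitals mark matches, on either strand, to GAAANNGAA or its shifted form GAANNGAAA, the core of the interferon-stimulated response element, and to GGGANTCCC, the NF-kB site of the class I enhancer. The form GAANNGAAA was added after the sequences had been seen. Each line below gives the gene, and the windows are chr17:35262904-35262972 (plus) for H2-D1, chr17:34000409-34000477 (minus) for H2-K1, chr17:35379444-35379492 (plus) for H2-Q4, chr2:122147528-122147576 (plus) for B2m and chr13:74639824-74639878 (plus) for Erap1.
H2-D1: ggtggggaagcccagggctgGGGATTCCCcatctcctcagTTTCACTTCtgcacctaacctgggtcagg
H2-K1: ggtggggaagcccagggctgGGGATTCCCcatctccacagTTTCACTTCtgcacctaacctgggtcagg
H2-Q4: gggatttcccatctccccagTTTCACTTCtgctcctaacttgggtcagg
B2m: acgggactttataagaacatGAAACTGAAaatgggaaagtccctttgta
Erap1: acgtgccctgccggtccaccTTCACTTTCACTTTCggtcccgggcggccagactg

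H2-D1 and H2-K1 share both marked elements in the same order. Of the marked letters H2-Q4 holds those of the interferon element alone, and B2m holds this element in the other orientation. The H2-Q4 window opens with gggatttccc, which is no match to GGGANTCCC. Other forms of the NF-kB site were not searched, so the capitals cannot show whether H2-Q4 or B2m lacks the site. Erap1 holds GAAANNGAA in overlapping copies on its minus strand. Of 32851 promoters of this length in the table, 8.56% hold GAAANNGAA, 7.52% GAANNGAAA and 0.767% GGGANTCCC. Tap1, Tapbp, Psmb8 and Psmb9 hold none of these letters in the window. The windows of Tap1 and Psmb9, which lie head to head, overlap. A match is a description of the letters and no measure of binding.

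**Figure D2:**
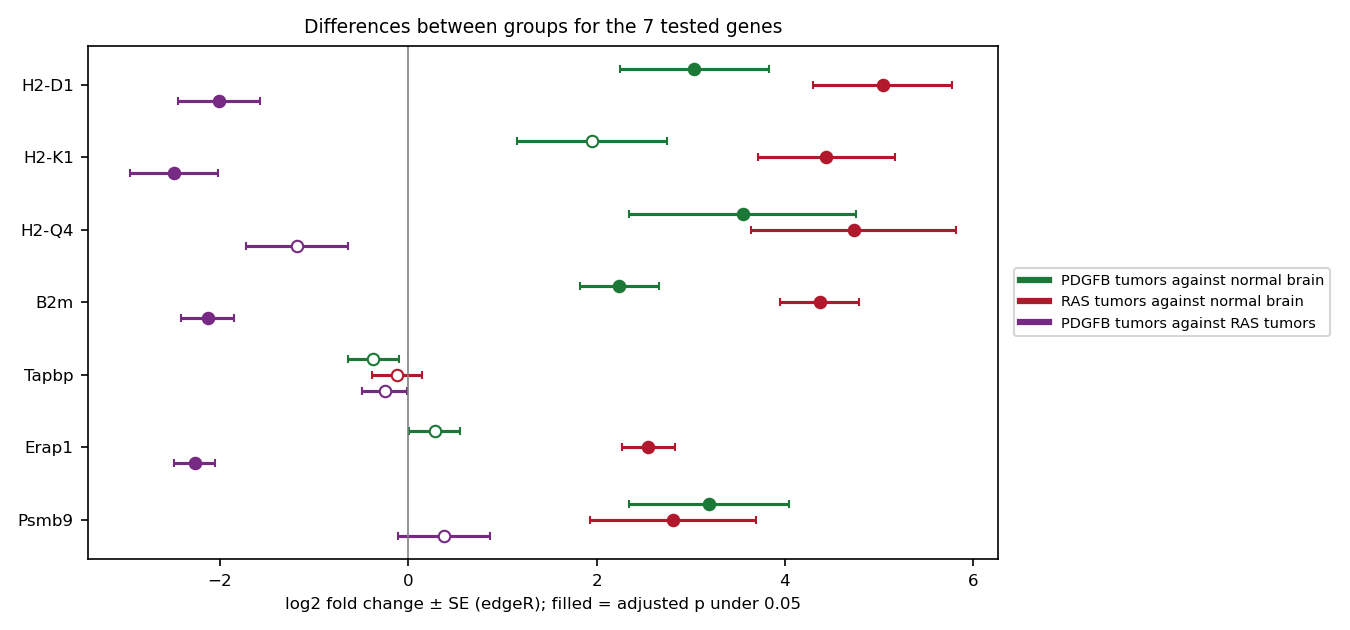
log2 fold change ± SE from edgeR for the 7 tested genes, each in PDGFB tumors against normal brain, RAS tumors against normal brain and PDGFB against RAS tumors. Filled points passed an adjusted p of 0.05. H2-D1, H2-K1, B2m and Erap1 lie between −2.01 and −2.49 in PDGFB against RAS tumors, while Psmb9 lies at 0.38 and Tapbp at −0.25.

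Erap1 is the aminopeptidase that trims peptides in the endoplasmic reticulum (chromosome 13, 74639568 to 74693201, plus strand). Reads under its name separated RAS tumors from both other groups. They cannot be told apart from reads of Cast, which shares 834 bases of exon with Erap1 on the other strand. The Erap1 row had 38, 39, 39, 48 and 37 reads in PDGFB tumors, 275, 124, 163, 147 and 179 in RAS tumors, and 29, 23 and 27 in normal brain. RAS tumors stood far above the rest, and PDGFB tumors stood just above the normal brains without overlap. The means were 65.6 ± 7.91 CPM in PDGFB tumors and 288.5 ± 95.6 in RAS tumors, against 45.8 ± 3.14 in normal brain. Erap1 in RAS tumors was 5.86-fold above normal brain (log2 2.55 ± 0.28, adjusted p = 1.36e-06). It was at 0.207 times the RAS level in PDGFB tumors (−2.27 ± 0.22, adjusted p = 1.38e-06). PDGFB tumors against normal brain gave 0.28 ± 0.27, which missed the threshold (adjusted p = 0.417).

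Tapbp, the chaperone that holds empty class I molecules next to the transporter (chromosome 17, 33915899 to 33929292, plus strand), gave values near 0 in each comparison. It had 36, 41, 49, 30 and 41 reads in PDGFB tumors, 38, 43, 53, 34 and 45 in RAS tumors, and 36, 52 and 32 in normal brain. The 3 groups overlapped fully. The log2 fold changes were −0.37 ± 0.27 in PDGFB tumors against normal brain (adjusted p = 0.283), −0.12 ± 0.27 in RAS tumors against normal brain (0.726) and −0.25 ± 0.24 in PDGFB against RAS tumors (0.450). The PDGFB and RAS values against normal brain ranged from −0.46 to 0.03 and from −0.23 to 0.24 when each library was left out in turn. Tapbp shares 149 bases of exon with Zbtb22 on its own strand. On the other strand it shares 904 with Gm19412, whose row, given below, was called in RAS tumors against normal brain and between the tumor types. The values near 0 therefore hold for the reads under the name Tapbp.

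Tap1, which with Tap2 forms the peptide transporter (chromosome 17, 34187553 to 34197225, plus strand), had 5, 4, 4, 2 and 13 reads in PDGFB tumors, 7, 9, 4, 6 and 12 in RAS tumors and none in the 3 normal brains. Every tumor had reads, and the tumor types overlapped. With a floor of 3 reads over the 3 normal brains, Tap1 was at least 5.23-fold higher in PDGFB tumors (28 reads) and at least 7.08-fold higher in RAS tumors (38 reads). With no low-count filter the adjusted p was 6.42e-04 in PDGFB tumors and 4.14e-05 in RAS tumors against normal brain, and 0.556 between the tumor types. For every call of the 7 tested genes, that fit gave a smaller adjusted p than the filtered fit. B2m in RAS tumors against normal brain, for example, had 2.17e-26 in place of 3.93e-07. Adjusted p without the filter, here and for Tap2 and Psmb8, is therefore not comparable with the calls above.

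Tap2 (chromosome 17, 34203527 to 34216321, plus strand) had 1, 1, 2, 1 and 3 reads in PDGFB tumors, 3, 8, 1, 3 and 2 in RAS tumors and 0, 3 and 1 in normal brain. The 3 groups overlapped, and a difference was not detectable at this depth. With no filter the adjusted p was 1 in PDGFB tumors and 0.418 in RAS tumors against normal brain, and 0.406 between the tumor types.

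The rows of the immunoproteasome subunits held fewer reads than those of the classical heavy chains in RAS tumors. Psmb8 and Psmb9 share exon bases with a gene on the other strand, and H2-D1 and H2-K1 have no gene opposite. The rows are therefore unlike, and this is no ranking of RNA levels. Psmb9 (chromosome 17, 34181987 to 34187764, minus strand) had 25, 14, 10, 8 and 26 reads in PDGFB tumors, 9, 16, 4, 7 and 22 in RAS tumors, and 0, 4 and 0 in normal brain. PDGFB tumors lay wholly above the normal brains, and RAS tumor 3 overlapped normal brain 2. The means were 27.0 ± 13.5 CPM in PDGFB tumors and 18.6 ± 11.3 in RAS tumors, against 2.52 ± 4.36 in normal brain. Psmb9 was higher than normal brain in PDGFB tumors (log2 fold change 3.19 ± 0.85, adjusted p = 0.00551) and in RAS tumors (2.81 ± 0.88, adjusted p = 0.0112). PDGFB against RAS tumors gave 0.38 ± 0.49 (adjusted p = 0.591), and this value ranged from 0.16 to 0.75 as each library was left out. Without normal brain 2 the remaining normal brains had no read and both calls stood (adjusted p = 0.00191 and 0.00233); without normal brain 1 the RAS call was lost (adjusted p = 0.0509).

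Psmb8, the second immunoproteasome subunit measured here (chromosome 17, 34197721 to 34201454, plus strand), had 1, 2, 0, 3 and 6 reads in PDGFB tumors, 3, 4, 1, 0 and 16 in RAS tumors and 0, 0 and 1 in normal brain. The 3 groups overlapped. The ratio of reads to normal brain was 6.73 for PDGFB tumors (95% counting interval 0.996 to 288) and 13.4 for RAS tumors (2.19 to 551). PDGFB tumor 5 held 6 of the 12 PDGFB reads, and without it the ratio was 4.19. RAS tumor 5 held 16 of the 24 RAS reads, and without it the ratio was 5.65. With no filter the adjusted p was 0.207 in PDGFB tumors and 0.0165 in RAS tumors against normal brain, and 0.374 between the tumor types.

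Because reads of both strands could stand under either name, the row opposite each gene was read as well. H2-Q4, Tap1, Tap2, Tapbp, Erap1, Psmb8 and Psmb9 share exon bases with a gene on the other strand. Tap1 and Psmb9 face each other over 212 bases. The other rows were Gm11131 (opposite H2-Q4 over 496 bases), Gm15821 (opposite Tap2 over 533), Gm20496 (opposite Psmb8 over 498 and Tap2 over 165), Gm19412 (opposite Tapbp over 904) and Cast (opposite Erap1 over 834). Of these rows, 4 of 5 were called higher in PDGFB tumors and 5 of 5 higher in RAS tumors than in normal brain. In PDGFB against RAS tumors 4 of 5 were called lower. The shares over all tested genes were 20.2%, 26.9% and 17.4% in the same order. Of the 4 called between the tumor types, Gm11131, Gm15821 and Gm20496 lost the call under 4, 11 and 12 of 21 alternatives.

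Gm20496 has 663 bases of exon, 75.1% of which lie opposite Psmb8. It had 198, 184, 186, 162 and 474 reads in PDGFB tumors, 260, 484, 265, 259 and 812 in RAS tumors, and 28, 22 and 21 in normal brain. Every tumor stood far above the normal brains, and PDGFB tumor 5 reached into the RAS range. Its log2 fold changes were 3.01 ± 0.48 in PDGFB tumors (adjusted p = 9.24e-05) and 3.93 ± 0.50 in RAS tumors (5.98e-06) against normal brain, and −0.92 ± 0.34 in PDGFB against RAS tumors (0.0475). The last call was lost under 12 of 21 alternatives, among them DESeq2 (adjusted p = 0.0503) and the fit without RAS tumor 5 (−0.51, adjusted p = 0.198). Per kb of exon it held 593.6, 1009 and 62.3 CPM in PDGFB tumors, RAS tumors and normal brain, where Psmb8 held 1.17, 2.25 and 0.163. The row opposite was thus 508.7, 448.2 and 382.6 times the Psmb8 level per length in those groups.

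Gm11131, opposite H2-Q4, had 130, 87, 78, 73 and 294 reads in PDGFB tumors, 247, 363, 129, 175 and 738 in RAS tumors, and 8, 5 and 16 in normal brain. Tumors and normal brains did not overlap, while the PDGFB and RAS ranges did. Against normal brain the log2 fold changes were 3.45 ± 0.67 in PDGFB tumors (adjusted p = 5.32e-04) and 4.90 ± 0.70 in RAS tumors (1.85e-05), beside the H2-Q4 ratios given above. In PDGFB against RAS tumors the value was −1.45 ± 0.44 (adjusted p = 0.0190), and without RAS tumor 5 it was −0.89 and no longer called (0.0834). It was also no longer called without PDGFB tumor 2 (0.0525), 3 (0.059) or 4 (0.0569). Leaving out normal brain 3 moved the PDGFB value against normal brain to 4.04.

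Gm15821, opposite Tap2, had 90, 106, 73, 75 and 146 reads in PDGFB tumors, 124, 169, 81, 130 and 234 in RAS tumors, and 36, 39 and 34 in normal brain. It was higher than normal brain in PDGFB tumors (log2 1.09 ± 0.33, adjusted p = 0.0114) and in RAS tumors (1.81 ± 0.33, adjusted p = 1.87e-04). It was lower in PDGFB than in RAS tumors (−0.72 ± 0.26, adjusted p = 0.0414), a call that was lost under 11 of 21 alternatives, at most at 0.133 without RAS tumor 5. Both tumor ranges lay above the normal brains, and they overlapped each other.

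Gm19412 and its partner Tapbp differed in their calls. Gm19412 had 83, 87, 94, 68 and 97 reads in PDGFB tumors, 158, 265, 107, 165 and 334 in RAS tumors, and 84, 63 and 82 in normal brain. RAS tumors were highest without overlap, and PDGFB tumors overlapped normal brains. It was higher in RAS tumors than in normal brain (1.23 ± 0.30, adjusted p = 0.0021) and lower in PDGFB than in RAS tumors (−1.39 ± 0.25, adjusted p = 5.05e-04), with −0.16 ± 0.29 in PDGFB tumors against normal brain (adjusted p = 0.686). Of the Gm19412 exons, 85.3% lie opposite Tapbp, and Gm19412 also shares exon bases with Zbtb22 on the other strand.

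Cast, which encodes the calpain inhibitor calpastatin, lies opposite the 3′ end of Erap1. It had 31, 29, 33, 34 and 44 reads in PDGFB tumors, 49, 40, 41, 34 and 84 in RAS tumors, and 16, 9 and 13 in normal brain. All tumors stood above the normal brains, and the tumor types overlapped. It was higher than normal brain in PDGFB tumors (1.10 ± 0.35, adjusted p = 0.0150) and in RAS tumors (1.77 ± 0.35, adjusted p = 3.26e-04), and −0.67 ± 0.26 in PDGFB against RAS tumors missed the threshold (0.0584). Erap1 held 39.6 CPM per kb in RAS tumors, where Cast held 6.98, so here the row opposite was the lower one. That order does not show which of these genes the reads under either name came from.

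**Figure D3:**
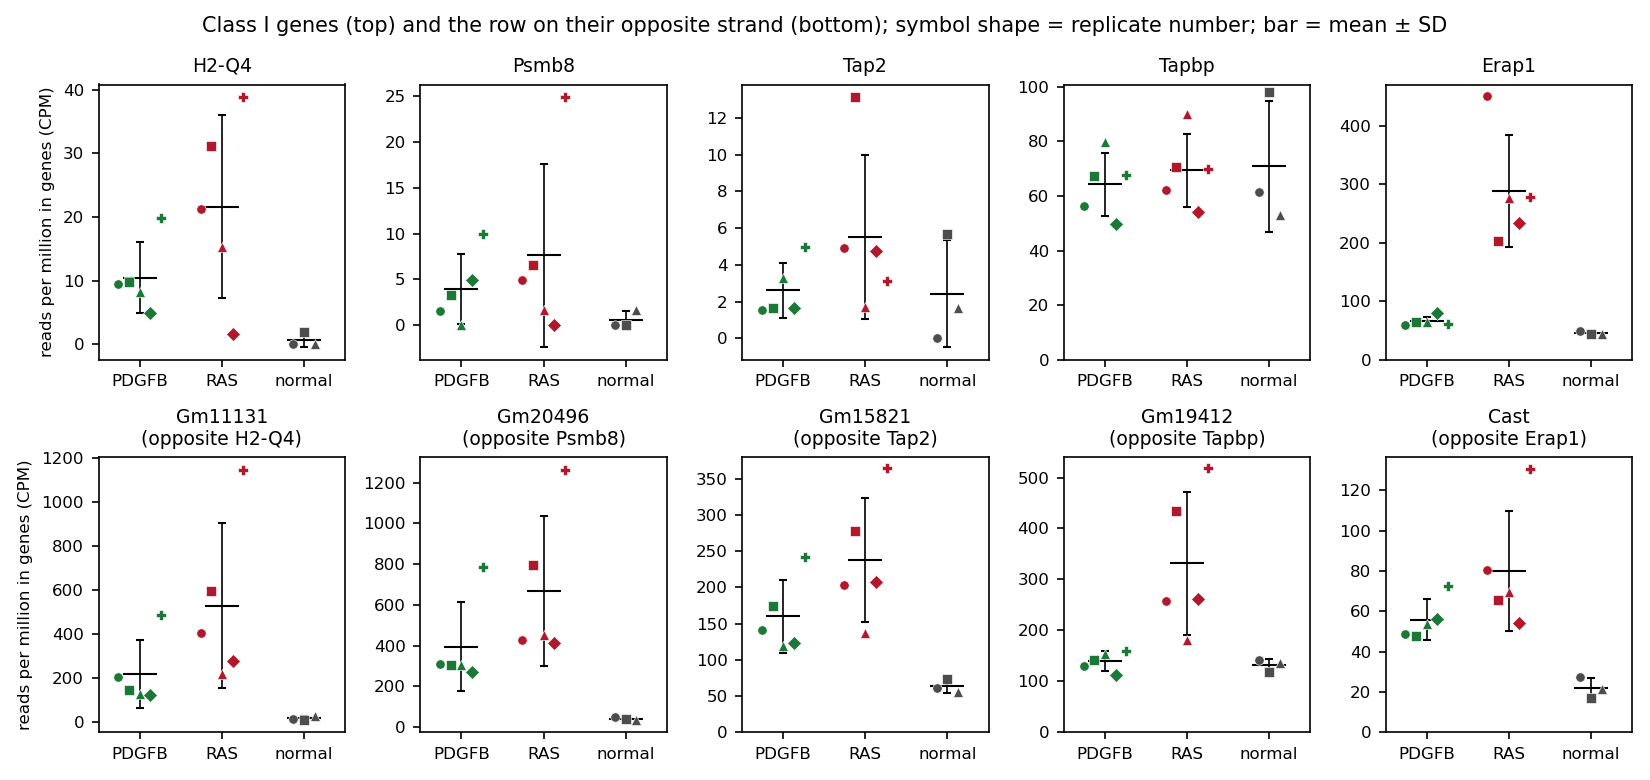
CPM (linear axes) of 5 class I genes in the top row and of the gene opposite each in the bottom row, one point per library, with mean ± SD. Gm11131, Gm20496 and Gm15821 lie many times higher than H2-Q4, Psmb8 and Tap2, and normal brain has the lowest mean in all of these panels. RAS tumors stand apart in Gm19412 but not in Tapbp, and in Erap1 but not in Cast, where they overlap PDGFB tumors.

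PDGFB tumor 5 was the highest of the PDGFB tumors for 8 of the 10 genes, and RAS tumor 5 the highest of the RAS tumors for 6 of 10. Summed over the 10 genes, PDGFB tumors held 233.0 to 463.0 CPM, RAS tumors 677.4 to 1277 CPM and normal brains 119.0 to 179.5 CPM. The 3 ranges of the sum did not overlap. The counts of called genes without RAS tumor 5 were 5 for PDGFB tumors against normal brain, 6 for RAS tumors against normal brain and 4 for PDGFB against RAS tumors. Without RAS tumor 2, the library that stood apart on the first principal component, they were the same.

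In whole tissue, fewer cells of a type and less RNA per cell cannot be told apart, so markers of other cell types were read beside the class I genes. The 18 macrophage and microglia markers summed to 431.9 to 562.3 CPM in PDGFB tumors, 818.5 to 1244 in RAS tumors and 421.4 to 479.3 in normal brain. Of 11 tested, 3 (27.3%) were higher and 1 (9.09%) lower in PDGFB tumors when set against normal brain. In RAS tumors 8 (72.7%) were higher than in normal brain, and 9 (81.8%) were lower in PDGFB than in RAS tumors. The shares over all tested genes were 20.2%, 25.1%, 26.9% and 17.4% in the same order. The 8 called in RAS tumors were Itgam, C1qa, C1qb, C1qc, Fcer1g, Ctss, Lyz2 and Laptm5. Each had under 10 reads in every normal brain, so they passed the filter through tumor libraries. Lyz2, a lysozyme of myeloid cells, averaged 20.8 ± 8.84 CPM in PDGFB tumors and 175.7 ± 22.1 in RAS tumors, against 3.38 ± 4.33 in normal brain. Ctss, a lysosomal protease of antigen-presenting cells, averaged 36.9 ± 5.17, 101.4 ± 29.5 and 8.58 ± 2.95 CPM in PDGFB tumors, RAS tumors and normal brain. Csf1r, a colony-stimulating factor receptor of macrophages and the marker with the most reads, was lower than normal brain in PDGFB tumors (197.2 ± 18.2 CPM in PDGFB tumors and 281.4 ± 25.4 in RAS tumors, against 247.8 ± 11.4 in normal brain; −0.57 ± 0.18, adjusted p = 0.0153, and 0.27 with no low-count filter). Cx3cr1, the fractalkine receptor of microglia, gave −0.73 ± 0.31 in PDGFB tumors against normal brain (adjusted p = 0.0623). The 3 markers higher in PDGFB tumors than in normal brain were Lyz2, Ctss and C1qc (2.29, 1.83 and 1.73). Between the tumor types, 9 of 11 markers were lower in PDGFB tumors, and so were H2-D1, H2-K1, B2m and Erap1. Laptm5 and Fcer1g had under 10 reads in every PDGFB tumor and normal brain, so they passed the filter through RAS tumors. C1qb and H2-K1 had medians of 9 and 8 reads in PDGFB tumors. Both counts carry that choice. Of the markers not tested, P2ry12 had 1 to 3 reads in PDGFB tumors, 0 to 6 in RAS tumors and 3 to 12 in normal brain. Ptprc had 0 to 4, 4 to 14 and 0 reads in the same groups. Single markers were named after their values were seen. The part of the markers in the class I differences was not tested.

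Markers of T and natural killer cells were at or near 0: Cd8a, Trac, Nkg7, Gzma, Klrd1, Ifng and Prf1 had no read in any library, and the 14 markers summed to 0 to 6.62 CPM in PDGFB tumors, 0 to 6.36 in RAS tumors and 3.31 to 7.56 in normal brain. The 8 dendritic cell markers summed to 14.8 to 47.9 CPM in PDGFB tumors, 12.4 to 56.1 in RAS tumors and 6.61 to 15.3 in normal brain, with Itgax, Batf3 and Xcr1 at 0 in normal brain. The 10 endothelial markers summed to 13.2 to 38.0, 28.9 to 72.0 and 28.4 to 35.8 CPM in PDGFB tumors, RAS tumors and normal brain, with Cldn5 at 0 in normal brain. All 14 neuron markers were lower in PDGFB tumors and 11 of 14 lower in RAS tumors than in normal brain. The 14 summed to 271.3 to 735.4 CPM in PDGFB tumors, 4064 to 8571 in RAS tumors and 5966 to 6398 in normal brain. Nefm, not called in RAS tumors against normal brain, was the largest part (means 5069 CPM in RAS tumors and 4164 in normal brain). Between the tumor types 3 of 14 (21.4%) were lower in PDGFB tumors and none higher. Of 9 tested oligodendrocyte lineage markers, 5 were higher and 3 lower in PDGFB tumors, and 3 higher and 3 lower in RAS tumors, than in normal brain. These are 55.6%, 33.3%, 33.3% and 33.3% of the 9, the last 3 near the shares over all genes. Over all tested genes 20.2% were higher and 25.1% lower in PDGFB tumors, and 26.9% higher and 29.3% lower in RAS tumors. In PDGFB against RAS tumors 5 of the 9 oligodendrocyte lineage markers (55.6%) were higher and none lower. Over all tested genes 14.6% were higher and 17.4% lower in that comparison.

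**Figure D4:**
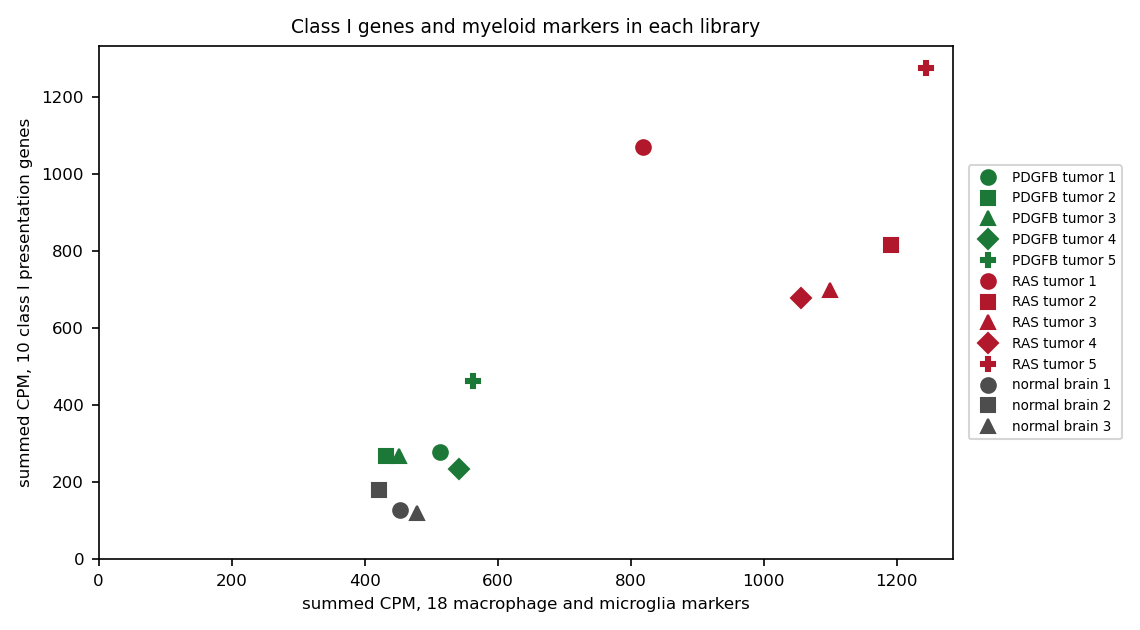
Summed CPM of the 10 class I genes (vertical, linear) against summed CPM of the 18 macrophage and microglia markers (horizontal, linear) in the 13 libraries. The 5 RAS tumors lie at the upper right. PDGFB tumors lie at 233.0 to 463.0 CPM of class I and normal brains at 119.0 to 179.5, with marker sums of 421.4 to 562.3 CPM, of which Csf1r is the largest part; single markers in that sum differ in direction.

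Other genes of the pathway were read from lists chosen by function. Of their called genes, Psme2, Psmb3, Psma3, Psmb6, Psme4, Bcap31, Lap3, Stat3 and Ezh2 had under 10 reads in every normal brain. They passed the filter through tumor libraries, and the list counts below carry that choice. The counts for each list stand beside 20.2%, 26.9% and 17.4% of all tested genes that were higher in PDGFB tumors than in normal brain, higher in RAS tumors than in normal brain, and lower in PDGFB than in RAS tumors. Of 18 other class I heavy chains, 2 were tested and none was called by edgeR with the filter, or by DESeq2, in any comparison, with 0 in that edgeR fit at an unadjusted p under 0.05. H2-T24, a non-classical heavy chain, averaged 46.2 ± 11.6 CPM in PDGFB tumors and 23.1 ± 22.8 in RAS tumors, against 36.7 ± 14.0 in normal brain, with log2 fold changes of 0.09, −0.78 and 0.87 in PDGFB against normal, RAS against normal and PDGFB against RAS (adjusted p = 0.903, 0.249 and 0.180). H2-T24 in PDGFB against RAS tumors passed with limma-voom (1.48, adjusted p = 0.0319), in edgeR with no low-count filter (0.94, adjusted p = 0.0405) and in edgeR without RAS tumor 1 (1.40, adjusted p = 0.043). H2-K2, H2-M2, H2-Q2, H2-Q10 and H2-T3 had no read in any library.

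Of 10 partners of peptide loading, 8 were tested: 3 were higher in PDGFB tumors and 7 in RAS tumors than in normal brain, and 5 were lower in PDGFB than in RAS tumors. Calr, calreticulin, which holds the heavy chain in the loading complex, averaged 132.3 ± 5.28 CPM in PDGFB tumors and 280.4 ± 58.9 in RAS tumors, against 73.8 ± 15.7 in normal brain. The 3 groups did not overlap for Calr, and it was lower in PDGFB than in RAS tumors (−1.23 ± 0.20, adjusted p = 1.54e-04). Its PDGFB call against normal brain (0.61 ± 0.24, adjusted p = 0.0459) ended under 10 alternatives, at most at 0.118. Pdia3, the disulfide enzyme of the loading complex (opposite Catsper2), averaged 102.8 ± 11.2, 191.1 ± 34.8 and 45.6 ± 11.8 CPM in PDGFB tumors, RAS tumors and normal brain, with all 3 comparisons called (adjusted p = 0.00638 and 8.67e-06 for PDGFB and RAS tumors against normal brain, 8.82e-04 between tumors). Hspa5, the chaperone BiP, was higher in PDGFB tumors (1.08 ± 0.28, adjusted p = 0.00489) and RAS tumors (1.83 ± 0.29, 4.77e-05) than in normal brain. Bcap31, which escorts class I molecules out of the endoplasmic reticulum, was lower in PDGFB than in RAS tumors (−1.57 ± 0.41, adjusted p = 0.00677). The list medians were 0.77, 1.28 and −0.88 for PDGFB against normal, RAS against normal and PDGFB against RAS.

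Of 16 core and activator genes of the proteasome, 13 were tested: 2 were higher in PDGFB tumors and 10 in RAS tumors than in normal brain, and 3 were lower in PDGFB than in RAS tumors. These are 15.4%, 76.9% and 23.1% of the 13, near or below the all-gene share in the first and the last comparison. The share of 76.9% carries the filter choice given above. Psme2 was one of the 3, and that call was lost under 15 of 17 alternatives (adjusted p = 0.0489, at most 0.143). The medians were 0.37, 1.27 and −0.60 in the same order. Psme2, a subunit of the interferon-induced PA28 activator, had 25 reads in PDGFB tumors and 51 in RAS tumors, against 1 in normal brain. The ratio of reads to normal brain was 14.0 in PDGFB tumors (95% counting interval 2.30 to 576; adjusted p = 0.00852) and 28.5 in RAS tumors (4.89 to 1150; adjusted p = 2.6e-04). Psme1, its partner subunit (opposite Emc9), averaged 17.7 ± 3.98 CPM in PDGFB tumors and 56.8 ± 51.6 in RAS tumors, against 21.3 ± 7.77 in normal brain. Psme1 was lower in PDGFB than in RAS tumors (−1.85 ± 0.47, adjusted p = 0.00609; −1.07 and 0.0172 without RAS tumor 5). Its call in RAS tumors against normal brain (1.36 ± 0.55, adjusted p = 0.0442) ended without RAS tumor 5 (0.68, adjusted p = 0.119). Psmb3 and Psma3, constitutive core subunits, were higher in RAS tumors than in normal brain (1.64 ± 0.48 and 1.48 ± 0.44, adjusted p = 0.00734 and 0.00801).

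Of 7 other peptide-trimming peptidases, 4 were tested: 1 was higher in PDGFB tumors and 2 in RAS tumors than in normal brain, and 2 were lower in PDGFB than in RAS tumors, of which the Lap3 call (−0.78, adjusted p = 0.0368) was lost under 13 of 22 alternatives, at most at 0.23. The medians were 0.18, 0.64 and −0.42. Lap3, leucine aminopeptidase, averaged 19.9 ± 3.81 CPM in PDGFB tumors and 31.2 ± 8.04 in RAS tumors, against 4.60 ± 1.75 in normal brain, higher than normal brain in both tumor types (1.82 ± 0.43, adjusted p = 0.00236; 2.60 ± 0.41, adjusted p = 5.34e-05). Nrd1, the metallopeptidase nardilysin (opposite Osbpl9), was higher in RAS tumors than in normal brain (0.97 ± 0.26, adjusted p = 0.00364) and lower in PDGFB than in RAS tumors (−0.89 ± 0.21, adjusted p = 0.00396).

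Of 22 regulators of class I, 7 were tested: 3 were higher and 2 lower in PDGFB tumors when set against normal brain, 3 higher and 2 lower in RAS tumors than in normal brain, and 1 higher and 2 lower in PDGFB than in RAS tumors. Against normal brain these are 42.9% higher and 28.6% lower in each tumor type, and between the tumor types 14.3% higher and 28.6% lower. Over all tested genes 25.1% and 29.3% were lower in PDGFB and RAS tumors than in normal brain, and 14.6% higher in PDGFB than in RAS tumors. The medians of the regulators were −0.21, 0.95 and −0.43. Irf1, an interferon-induced activator of class I promoters (opposite Gm17334), averaged 6.79 ± 3.87 CPM in PDGFB tumors and 13.2 ± 11.5 in RAS tumors, against 18.8 ± 3.90 in normal brain. Irf1 stood below normal brain in PDGFB tumors (−1.66 ± 0.66, adjusted p = 0.0487), a call that ended under 13 alternatives, at most at 0.176. Rfxap, a subunit of the RFX complex that binds MHC promoters, was lower in RAS tumors than in normal brain (−1.91 ± 0.56, adjusted p = 0.00768). It was higher in PDGFB than in RAS tumors (1.37 ± 0.51, adjusted p = 0.0481), a call that ended under 11 alternatives, at most at 0.147. Ezh2, a histone methyltransferase known to silence class I genes (opposite Gm26625), had 89 reads in PDGFB tumors and 49 in RAS tumors, against 2 in normal brain, with both tumor types called higher than normal brain (adjusted p = 5.69e-05 and 3.04e-04). Stat3, a transcription factor downstream of cytokines (opposite Stat5a), was higher than normal brain in PDGFB tumors (1.66 ± 0.39, adjusted p = 0.00229) and RAS tumors (2.16 ± 0.39, adjusted p = 1.57e-04). Nlrc5, the class I transactivator, had 0 to 1 reads in PDGFB tumors, 1 to 5 in RAS tumors and 0 to 2 in normal brain. It fell under the filter and was named after its reads were seen.

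**Figure D5:**
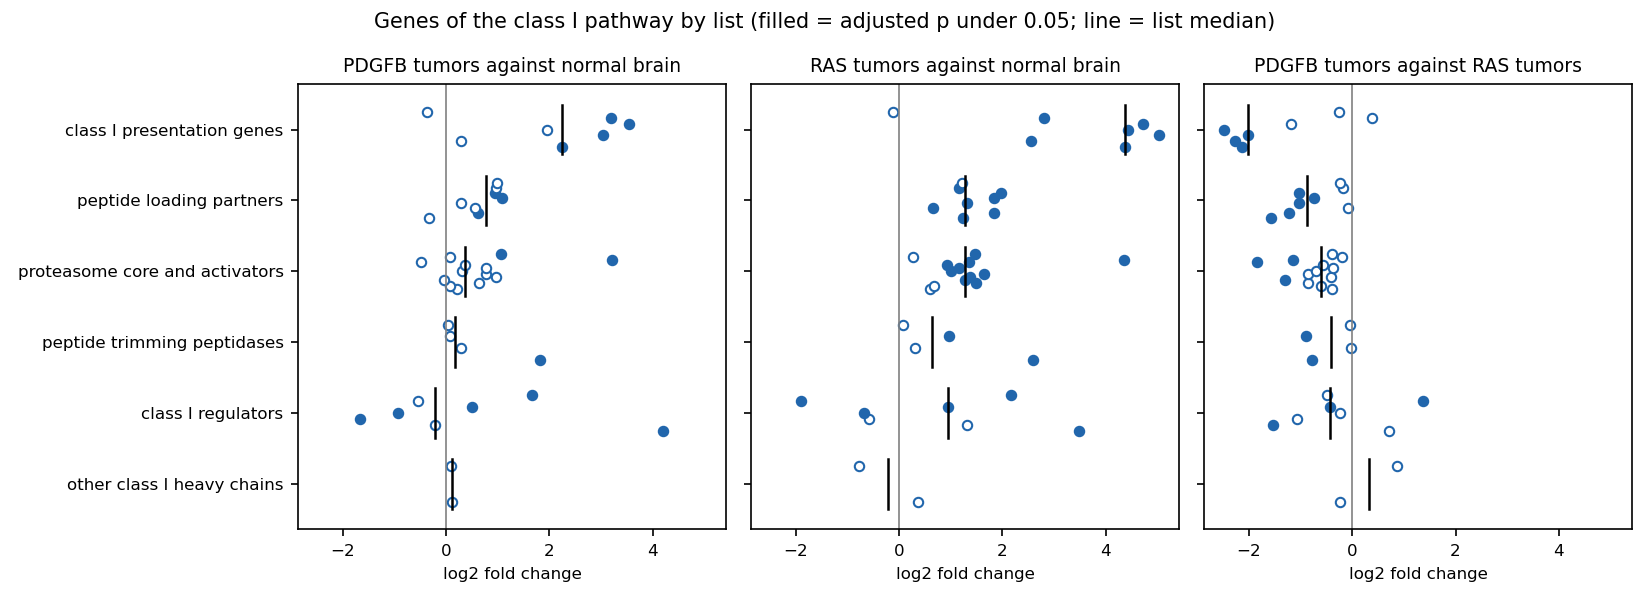
log2 fold change of every tested gene in 6 lists of the class I pathway, in PDGFB tumors against normal brain, RAS tumors against normal brain and PDGFB against RAS tumors. Each point is a gene, filled at an adjusted p under 0.05, and the black line is the list's median. The 7 tested class I presentation genes have medians of 2.24, 4.37 and −2.01, and the loading partners 0.77, 1.28 and −0.88; differences between lists were not tested.

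The 5 genes whose log2 CPM over the 13 libraries was most like the mean profile of the 7 tested genes were Zcwpw1, Psmb7, Psmc3ip, Ifitm3 and Unc13a, among 5693 genes compared. Their Pearson r ran between 0.938 and 0.949, a description only, since the libraries share their groups, and their values below carry no test because they were chosen for this likeness. Ifitm3, an interferon-induced membrane protein with no gene opposite, had 42 reads in PDGFB tumors and 126 in RAS tumors, against 1 in normal brain. Zcwpw1, which lies opposite the myeloid receptor gene Pilra, averaged 13.9 ± 6.27 CPM in PDGFB tumors and 50.5 ± 22.9 in RAS tumors, against 1.83 ± 1.89 in normal brain. Psmb7, a core proteasome subunit (opposite Nek6), averaged 41.0 ± 6.96, 54.8 ± 10.1 and 27.0 ± 6.38 CPM in PDGFB tumors, RAS tumors and normal brain. Psmc3ip (opposite Mlx) averaged 137.5 ± 19.2, 178.6 ± 22.6 and 85.8 ± 14.5 CPM and Unc13a (opposite Colgalt1) 533.8 ± 79.2, 790.6 ± 242.7 and 225.3 ± 13.7 CPM in the same groups.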

How the data were processed

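Trizol RNA was made into libraries with a TruSeq RNA kit, per the labels' protocols. GRCm38, STAR 2.7.9a and fastp 0.22.0 are named in the submitters' processing notes; the annotation and the strand setting of the count are not given in the sources used here. The authors deposited raw read counts per gene, which are whole numbers and were not normalized. Summary lines for reads in no gene were left out of library totals and tests. CPM scales each gene's reads to a common total of the reads counted in genes.

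The test was that of edgeR 4.0.16 (R 4.3.3): filterByExpr (minimum count 10, minimum total 15), TMM factors, 1 coefficient per group over 13 libraries, two-sided quasi-likelihood tests, Benjamini-Hochberg adjustment over 7722 genes, called under 0.05. Where a group had no read, the fold uses a floor of 3 reads over that group, and with 1 to 3 reads the ratio of reads has an exact 95% interval. These intervals and floors hold for counting error alone: the reads carry no molecular identifiers and so are no independent molecules. Exon overlaps and 50-base stretches came from GENCODE M21, promoters from RefSeq. The fit was tested on simulated data.

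The members and lists were chosen with earlier results of these data known. Named genes were the 10 members, the rows opposite them, up to 4 called genes of largest change per list (the most abundant gene where none was called), and the 5 genes most like the mean profile with at least 10 CPM. Groups followed titles and tissue labels; 1 normal title starts with other letters. Alternatives were other scale factors, other filters, DESeq2 1.42.0, limma-voom (limma 3.58.1), 2 groups alone, leaving out each library, genes with no exon opposite, and the replicate number as a block.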

Additional observations from a re-analysis of the deposited data

Results flagged for a closer look

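In 61 sets of 5 tumor libraries looked at, 9 had a library far from the other 4. The rule used would mark about 1 in 20 sets if values were normally spread and the sets independent. Some counts here are small, and several genes rise together in the same library. The 9 of 61 is therefore not comparable with that share. RAS tumor 5 held 261.3 CPM of H2-D1 (other RAS tumors 85.9 to 106.7), 24.9 CPM of Psmb8 (others 0 to 6.57) and 147.7 CPM of Psme1 (others 19.6 to 41.0). PDGFB tumor 5 held 51.3 CPM of H2-K1 (other PDGFB tumors 12.6 to 19.7), 21.5 CPM of Tap1 (others 3.31 to 7.84), 486.2 CPM of Gm11131 (others 120.6 to 203.9) and 783.9 CPM of Gm20496 (others 267.7 to 310.6). PDGFB tumor 4 held 79.3 CPM of Erap1 (others 59.6 to 64.1). RAS tumor 2 held 13.1 CPM of Tap2 (others 1.70 to 4.91). In 7 of the 9, the library was replicate 5 of its tumor type.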

How the results depend on the processing

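Over the alternatives run, the fold changes of the 7 tested genes kept their direction and side of the threshold in 413 cases, gained a call in 14 and lost one in 4, and no called value changed sign; other named genes gave 1393, 14 and 124. In RAS tumors against normal brain, 3 class I genes were called among genes with no exon opposite, because only H2-D1, H2-K1 and B2m are left there. That fit tested fewer genes and called 1287, 1675 and 926 over all genes in PDGFB against normal, RAS against normal and PDGFB against RAS, where 3498, 4340 and 2476 were called before. Of the opposite rows, 2 were called in PDGFB against RAS tumors in the fit of the 2 groups alone, with library totals and with the looser filter; the cause was not tested. Leaving out each library gave 4 to 6, 6 to 7 and 4 to 5 called class I genes and 3 to 4, 5 and 1 to 5 called opposite rows in the 3 comparisons, the 1 without RAS tumor 5. Without normal brain 3 Psme2 and Ezh2 had no normal read left, with their calls against normal brain kept. Replicate numbers did not pair the tumors (correlations of same-numbered samples −0.128 to 0.139, replicate 1 alone matching its own number). With the replicate block 4 class I genes and 4 opposite rows were called in PDGFB against RAS tumors, and 1705 genes over all, against 1829 in the fit of the 2 groups alone. At 0 to 7 reads per normal brain for the heavy chains, B2m, Tap1, Tap2, Psmb8 and Psmb9, the depth limits the size of every fold over normal brain.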
